A study of Mus musculus with 6 samples.

Results

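The genes described here are 9 transcription factor genes of nephron development: Pax2, Pax8, Lhx1, Six2, Osr1, Sall1, Eya1, Emx2 and Pou3f3. Each was found by its symbol in the platform annotation of the deposited array table, where each had exactly 1 probe set naming it alone, so that all 9 were measured among 22180 genes tested. The data came from 6 mouse kidney samples taken at 4 weeks of age, each on 1 Affymetrix whole-transcript array. A conditional knockout line of Mpp5, the gene of the polarity scaffold Pals1, is labelled as C56Bl/6. Six2-Cre transgenic mice are labelled as mixed background, as are all 6 samples. The groups are 3 Cre-negative and 3 Cre-positive kidney samples, with no further treatment. How many conditional Mpp5 alleles either group carried is not given by the labels. The transgene is labelled in 1 group only, so an effect of Cre itself and one of Mpp5 loss cannot be told apart. As nothing in the labels ties each sample to a mouse of its own, the p-values reflect the spread among these arrays, part of which may be technical.

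Nephrons arise from cap mesenchyme, a pool of progenitors next to the branching ureteric bud. Osr1, Eya1, Sall1 and Six2 mark or maintain that pool. Pax2 and Pax8 act in the whole nephric lineage, Lhx1 patterns the first epithelial vesicles, and Emx2 and Pou3f3 serve the ureteric bud and the later tubule segments. The progenitor pool is used up shortly after birth in mice, while Pax2 and Pax8 are still made in tubules of the mature kidney and are known to change in injured tubules. Six2 regulatory sequence drives the Cre recombinase of these mice, which is therefore active in the cap mesenchyme and its descendants, while the collecting duct has another origin.

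Some arrays stood apart in ways the labels do not give. Xist and the Y-linked genes showed female transcripts in 2 of 3 Cre-negative arrays (replicates 1 and 2) and 0 of 3 Cre-positive arrays. Adrenal transcripts stood out in Cre-negative replicate 2, with Cyp11b1 at 11.10 against 3.85 to 4.24 elsewhere, and muscle transcripts in Cre-positive replicate 2, with Myh4 at 7.72 against 3.93 to 4.86. Mpp5, the targeted gene, fell by 0.61 ± 0.09 on the log2 scale (limma adjusted p = 0.00232), and with male arrays alone its adjusted p was 0.0622. Array medians lay between 5.55 and 5.64, and Pearson correlations over genes were 0.9898 to 0.9947 within and 0.9727 to 0.9752 between groups.

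Of the 9 genes, Pax8 and Pax2 were higher and Lhx1 was lower in Cre-positive kidneys, and the other 6 did not pass the test. Values are log2 levels after RMA. A difference is the Cre-positive mean minus the Cre-negative mean ± SE from limma, and a call is a Benjamini-Hochberg adjusted p under 0.05 over all 22180 genes. The 3 calls are 33.3% of the 9 genes, beside 21.8% called over all genes (10.7% higher and 11.1% lower). The median difference was -0.06 over the 9 genes and -0.01 over all genes, and the median size of the difference, regardless of sign, was 0.20 and 0.16. In bulk kidney RNA, fewer cells of a type and less RNA per cell cannot be told apart.

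The stretches before the start sites of the 3 genes that passed are shown because these genes moved in both directions, with Pax8 and Pax2 sharing a direction. They are the 250 bases before the RefSeq start (GRCm38.p6), 5′ to 3′, from the most upstream of 3 listed starts for Pax2 and the single listed start for each of the other two. Capitals mark matches on either strand to 4 motifs. The first is GGGCGG, the site of Sp-type factors called the GC box. The second is CCAAT, the site of NF-Y factors. The third is TATAAA, the site of the TATA-binding protein. The fourth is GTTAAT, the core bound by HNF1 factors of kidney tubules. No matches overlapped in the printed windows.
Pax8, chr2:24475600-24475849, minus strand: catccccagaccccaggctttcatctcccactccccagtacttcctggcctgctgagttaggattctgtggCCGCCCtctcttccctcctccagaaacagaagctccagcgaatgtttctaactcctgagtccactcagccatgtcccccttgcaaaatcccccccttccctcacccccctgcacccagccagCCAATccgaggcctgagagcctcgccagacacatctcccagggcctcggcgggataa
Pax2, chr19:44746351-44746600, plus strand: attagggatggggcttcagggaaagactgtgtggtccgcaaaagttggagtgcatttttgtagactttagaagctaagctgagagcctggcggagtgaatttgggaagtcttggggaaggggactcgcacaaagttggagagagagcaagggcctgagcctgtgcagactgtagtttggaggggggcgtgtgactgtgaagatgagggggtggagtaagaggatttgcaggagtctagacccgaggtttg
Lhx1, chr11:84525535-84525784, minus strand: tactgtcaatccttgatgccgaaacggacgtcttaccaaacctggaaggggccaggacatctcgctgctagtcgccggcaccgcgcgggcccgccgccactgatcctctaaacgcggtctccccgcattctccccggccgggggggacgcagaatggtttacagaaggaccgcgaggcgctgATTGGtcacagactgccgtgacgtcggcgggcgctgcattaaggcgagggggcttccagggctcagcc
The Pax8 window held a GC box starting 179 bases and an NF-Y motif starting 57 bases before the start, and the Lhx1 window held an NF-Y motif starting 68 bases before it. The printed Pax2 window held none of the 4 motifs, while each of its 2 other windows held 1 GC box. Of 32851 promoter windows of the same length, 32.7% held the GC box, 33.8% the NF-Y motif, 12.4% the TATA motif and 6.43% the HNF1 core. The Lhx1 window contained 26 CpG dinucleotides and that of Pax8 6, beside a median of 6 over all windows. The count for Pax2 depended on the start, with 5 in the printed window and 20 and 25 in its other windows. RefSeq promoter entries matched 7 of the 9 genes, with none used for Osr1 and Eya1.

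Pax8 (probe set 17382224) encodes a paired-domain factor that acts with Pax2 in specifying the nephric lineage. Its log2 level was 9.96, 9.85 and 9.82 in Cre-negative replicates 1 to 3 and 10.84, 10.81 and 10.56 in Cre-positive replicates 1 to 3. All Cre-positive values lay above all Cre-negative values, with a gap of 0.60 between the groups. Pax8 rose by 0.86 ± 0.10 (limma adjusted p = 0.00109), a 1.81-fold rise with a 95% interval of 1.54 to 2.14. An exact permutation test, two-sided, had p = 0.10, the lowest value possible with 3 against 3 arrays. Pax8 passed the limma test in all 19 alternative analyses, with differences from 0.80 to 0.95.

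Pax2 (probe set 17359726) encodes the closely related paired-domain factor without which the metanephric kidney does not form. It stood at 7.78, 8.003 and 7.70 in the Cre-negative arrays and at 8.38, 8.29 and 8.26 in the Cre-positive arrays. The groups did not overlap, with a gap of 0.26, and the highest Cre-negative value was that of replicate 2. Pax2 rose by 0.48 ± 0.10 (limma adjusted p = 0.0127), or 1.40-fold with a 95% interval of 1.19 to 1.65, and the exact permutation p was again 0.10. The call was lost without Cre-negative replicate 1 (adjusted p = 0.0535) and with male arrays alone (adjusted p = 0.0718), where the difference was 0.46 and 0.62. Within each array, the log2 ratio of Pax8 to Pax2 was higher in Cre-positive kidneys by 0.38 (exact two-sided permutation p = 0.10), without overlap between the groups.

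Lhx1 (probe set 17267039) encodes the LIM homeodomain factor of the nephric duct and the renal vesicle. Its level was 8.24, 8.35 and 8.23 in Cre-negative arrays and 7.26, 7.30 and 7.19 in Cre-positive arrays. The values within either group lay within 0.12 of each other, and the groups were 0.93 apart. Lhx1 fell by 1.03 ± 0.08 on the log2 scale (limma adjusted p = 0.000220), which leaves 0.491 of the Cre-negative level (95% interval 0.430 to 0.561). The exact permutation p was 0.10. In all 19 alternatives Lhx1 passed the test, with differences from -1.09 to -0.98. The log2 ratio of Pax8 to Lhx1 within an array shifted by 1.89, and that of Pax2 to Lhx1 by 1.51. Both ratios to Lhx1 had to separate the groups, because Pax8 and Pax2 rose and Lhx1 fell, each without overlap. They restate the 3 calls and add no support to them. All 3 ratios, that of Pax8 to Pax2 included, were chosen after the genes had passed. Their exact permutation p of 0.10 is therefore descriptive.

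**Figure D1:**
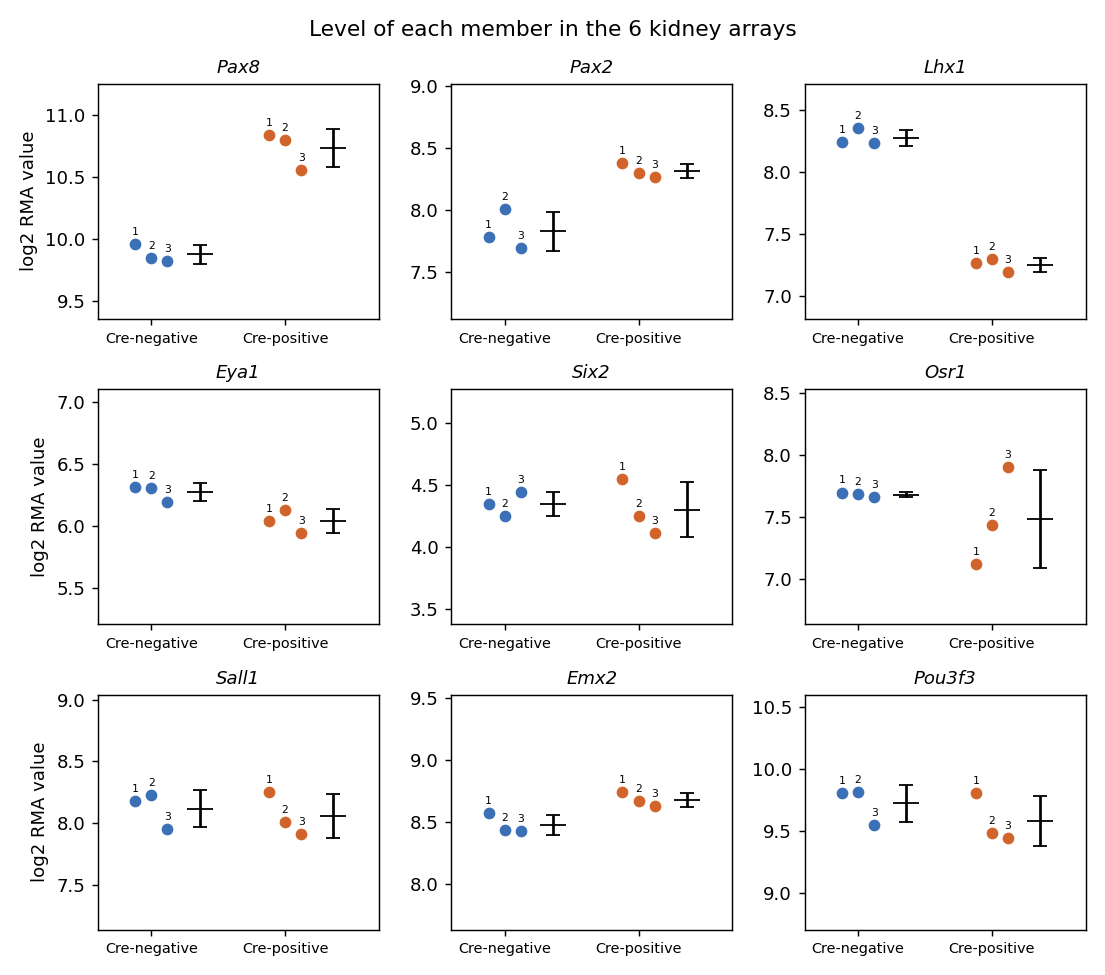
Log2 RMA level of each of the 9 genes (y axis, log2 scale, equal span in all panels) in Cre-negative and Cre-positive kidney arrays; points are single arrays numbered by replicate, and the bar beside them is the mean ± SD of 3 arrays. Pax8 and Pax2 lie higher and Lhx1 lower in Cre-positive arrays without overlap, and Osr1 spreads from 7.12 to 7.90 in the Cre-positive group.

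The 4 genes of the progenitor pool did not pass the test. Eya1 (probe set 17221375), a phosphatase and transcriptional coactivator, stood at 6.32, 6.31 and 6.19 in Cre-negative and 6.04, 6.13 and 5.94 in Cre-positive arrays. Its groups did not overlap, by a gap of 0.06, and the difference was -0.24 ± 0.09 (limma adjusted p = 0.106). It passed after a second quantile normalization (-0.31, adjusted p = 0.0450) and under no other alternative. Groups without overlap were found for 5 of the 9 genes, beside 38.5% of all genes tested (18.6% higher and 19.9% lower). Six2 (probe set 17347839), the factor that keeps progenitors undifferentiated, stood at 4.35, 4.25 and 4.44 in Cre-negative and 4.55, 4.25 and 4.11 in Cre-positive arrays. The Six2 groups overlapped, with a difference of -0.04 ± 0.12 (limma adjusted p = 0.850, 95% interval -0.33 to 0.24), whose sign turned without Cre-negative replicate 3 (0.00164) or Cre-positive replicate 3 (0.049). Uty, a Y-linked gene, read 4.54 and 4.10 in the 2 arrays that carried female transcripts, so a value of this size can come from a probe set whose transcript is not made.

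Sall1 (probe set 17511540), a zinc finger factor that holds progenitors in their state together with Six2, had levels of 8.18, 8.23 and 7.95 in Cre-negative and 8.25, 8.01 and 7.91 in Cre-positive arrays. The difference was -0.06 ± 0.12 (limma adjusted p = 0.787, 95% interval -0.34 to 0.22), and its groups overlapped. Against Cre-negative replicate 3 alone, the Sall1 difference was 0.11. Osr1 (probe set 17274021), the earliest of these factors in the intermediate mesoderm, was even in Cre-negative arrays at 7.70, 7.69 and 7.66 and uneven in Cre-positive arrays at 7.12, 7.43 and 7.90. Cre-positive replicate 3 lay above every Cre-negative array, and the other 2 below them. The Osr1 difference was -0.20 ± 0.18 (limma adjusted p = 0.514). Without Cre-positive replicate 3 it was -0.41 and passed (adjusted p = 0.0454), and without Cre-positive replicate 1 it was -0.01 (adjusted p = 0.962). Markers of fibroblasts and pericytes, averaged over 11 genes, were at 8.995, 9.64 and 10.03 in Cre-positive replicates 1, 2 and 3 and between 8.74 and 8.84 in Cre-negative arrays. Macrophage and myeloid markers, averaged over 12 genes, were at 8.19, 8.74 and 9.22 in the same Cre-positive arrays. Their part in the Osr1 values was not tested.

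The remaining members did not pass either. Emx2 (probe set 17360845), a homeodomain factor needed by the ureteric bud to induce the mesenchyme, stood at 8.57, 8.44 and 8.43 in Cre-negative and 8.74, 8.67 and 8.62 in Cre-positive arrays. The groups lay 0.05 apart without overlap, and the difference was 0.20 ± 0.09 (limma adjusted p = 0.145). Pou3f3 (probe set 17212313), the POU factor of the loop of Henle and distal tubule also known as Brn1, stood at 9.81, 9.81 and 9.55 in Cre-negative and 9.81, 9.49 and 9.45 in Cre-positive arrays. Its groups overlapped, with a difference of -0.14 ± 0.13 (limma adjusted p = 0.501, 95% interval -0.44 to 0.15). Against Cre-negative replicate 3 alone, the difference of Pou3f3 was 0.03.

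**Figure D2:**
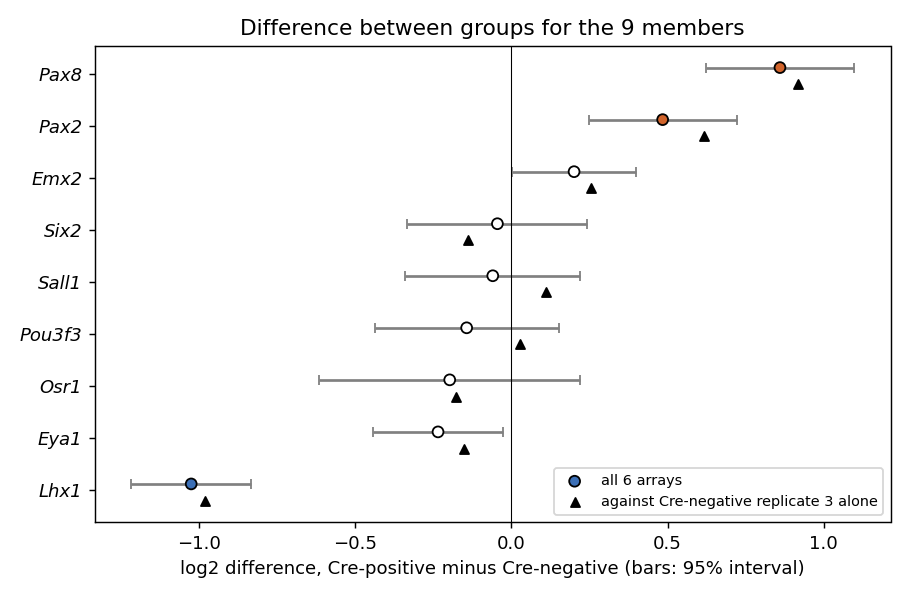
Log2 difference, Cre-positive minus Cre-negative, of the 9 genes (x axis), with 95% intervals from limma for 3 against 3 arrays; filled circles passed the test, open circles did not, and triangles give the Cre-positive mean minus Cre-negative replicate 3 alone. Pax8 at 0.86, Pax2 at 0.48 and Lhx1 at -1.03 keep their side of 0 in both measures, while Sall1 and Pou3f3 lie on both sides.

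With sex as a second factor, which leaves Cre-negative replicate 3 to stand for its group, 9.15% of all genes were called. Pax8 (0.92, limma adjusted p = 0.0160), Pax2 (0.62, adjusted p = 0.0413) and Lhx1 (-0.98, adjusted p = 0.00665) still passed. Without both arrays that carried adrenal or muscle transcripts the limma adjusted p was 0.0307 for Pax8, 0.0442 for Pax2 and 0.0102 for Lhx1.

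Other genes of nephron development were read from 7 lists of 135 measured genes in all. Of these, 19 rose and 16 fell, which is 25.9% beside the 21.8% over all genes. Among 16 measured genes of cap mesenchyme and progenitors, 2 rose and 3 fell, or 31.25% called. Fgf9, a growth factor that sustains progenitors, fell (-0.998 ± 0.14), as did Wt1, which is needed in the mesenchyme and later in podocytes (-0.87 ± 0.15), and Dpf3, which encodes a chromatin remodelling subunit (-0.64 ± 0.11). Podocyte markers, Wt1 among them, fell in the same arrays, 6 of 7 measured, with a mean level of 7.83 to 8.13 in Cre-negative and 6.93 to 7.09 in Cre-positive arrays, and their part in the Wt1 value was not tested. The 2 members that rose were the kidney patterning genes Hoxd11 (0.95 ± 0.13) and Hoxc11 (0.50 ± 0.11). Hoxc11 was dim, with group means of 4.196 in Cre-negative and 4.69 in Cre-positive arrays. Uty read 4.54 and 4.10 in the arrays that carried female transcripts. The Cre-negative level of Hoxc11 can thus come from a probe set whose transcript is not made, and its Cre-positive level lies little above. The list median was -0.18, and sex as a second factor ended 1 of the 5 calls, that of Wt1.

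Of 19 measured genes of induction, renal vesicle and S-shaped body, 3 rose and 2 fell, or 26.3% called beside 21.8% over all genes. Bmp7, a growth factor for progenitor renewal, fell from 9.73 to 8.68 in the group means (-1.05 ± 0.09, limma adjusted p = 0.000330), and the sulfate-activating enzyme gene Papss2 also fell (-1.01 ± 0.12). Cdh6, a cadherin of the early proximal nephron, rose (1.14 ± 0.22), with levels of 9.24, 9.24 and 8.38 in Cre-negative and 9.97, 10.11 and 10.19 in Cre-positive arrays. Cre-negative replicate 3 was thus the lowest of all 6 arrays for Cdh6. The growth factor gene Bmp2 (0.53 ± 0.15) and the receptor gene Notch1 (0.35 ± 0.10) rose, and neither passed with sex as a second factor. The count was 3 in place of 5 without any 1 of the 3 Cre-negative arrays or Cre-positive replicate 1.

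Of 19 measured ureteric bud and collecting system genes, 5 rose and 4 fell, or 47.4% called beside 21.8% over all genes. Sox9, a factor of branching tips that is also made in regenerating tubules, rose by 2.07 ± 0.11. The Gdnf pathway inhibitor Spry1 (0.60 ± 0.14), the collecting duct factor gene Gata2 (0.39 ± 0.11) and Hoxb7 (0.74 ± 0.14) also rose. The guidance receptor and ligand genes Robo2 (-1.05 ± 0.17) and Slit2 (-0.57 ± 0.10), which limit where the bud forms, fell. The Gdnf co-receptor gene Gfra1 (-0.54 ± 0.13) and the Emx2 relative Emx1 (-0.64 ± 0.11) fell too. Of the 9 calls, those of Sox9 and Spry1 passed also with sex as a second factor. Of 10 principal cell markers of the collecting duct, 5 rose and 0 fell in the same arrays by limma's adjusted test. Before adjustment (p under 0.05), 6 were higher and 1, Aqp4 (-0.50 ± 0.18), was lower. The list mean was 9.15 to 9.36 in Cre-negative and 9.57 to 9.85 in Cre-positive arrays. Of the 5 that passed, Krt8 and Krt18 are also made in injured tubules. All 10 tubular injury markers, Sox9 and Krt18 among them, rose, with a mean level of 6.999 to 7.15 in Cre-negative and 9.49 to 9.92 in Cre-positive arrays. The part of these marker shifts in the values of Pax2, Pax8, Gata2 and Hoxb7 was not tested.

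Of 23 measured transcription factors of mature nephron segments, 2 were higher and 4 lower, or 26.1% called beside 21.8% over all genes. Hnf4a, the master factor of the proximal tubule, fell by 0.43 ± 0.11 on the log2 scale. Ppara, a regulator of fatty acid oxidation (-0.54 ± 0.12), the orphan receptor gene Esrrg (-0.57 ± 0.11) and Sim2 (-0.41 ± 0.10) fell. Those that rose were Ehf, an epithelial Ets factor (1.03 ± 0.11), and Tfap2a (0.57 ± 0.14). Of the 6 calls, sex as a second factor left that of Ehf. The count was 2 in place of 6 without Cre-negative replicate 1 and 3 without Cre-positive replicate 2. In the same arrays 12 of 14 proximal tubule markers fell, with a mean level of 12.001 to 12.10 in Cre-negative and 10.74 to 10.83 in Cre-positive arrays. Of 10 thick ascending limb markers 6 fell and 1 rose, with a mean of 10.34 to 10.53 against 9.30 to 9.502. The part of these shifts in the values of Hnf4a, Lhx1 and Pou3f3 was not tested.

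Stromal lineage factors gave 1 call among 12 measured, or 8.33% beside 21.8% over all genes. This was the rise of Hoxd10 (0.38 ± 0.10, limma adjusted p = 0.0251). None fell by limma's adjusted test, while 2 were higher and 1 was lower before adjustment (p under 0.05). Osr2, the relative of Osr1, was at 8.51, 8.87 and 8.36 in Cre-negative and 7.88, 7.58 and 8.45 in Cre-positive arrays (-0.61 ± 0.22, limma adjusted p = 0.0953). The nuclear receptor gene Nr2f2 (0.26 ± 0.09) and the homeobox gene Meis2 (-0.20 ± 0.10) did not pass. The Hoxd10 call was lost without any 1 of the Cre-negative arrays, without Cre-positive replicate 2 and under median centring. It was also lost with sex as a second factor and with replicate number as a block. The same held without both arrays that carried adrenal or muscle transcripts and at a threshold of 0.01. Against Cre-negative replicate 3 alone, the Hoxd10 difference was 0.44.

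Other members of the gene families of these 9 factors gave 3 calls among 29 measured, or 10.3% beside 21.8% over all genes. Sall2 (-0.46 ± 0.08), Sall3 (-0.71 ± 0.15) and Emx1 fell, and 0 rose by limma's adjusted test, while 1 was higher and 4 were lower before adjustment (p under 0.05). Eya2, a relative of Eya1, did not pass (0.44 ± 0.14, limma adjusted p = 0.0553). All 3 calls of this list were lost with sex as a second factor, and 5 were made without Cre-positive replicate 3. Among 21 partner and cofactor genes, 6 rose and 1 fell, or 33.3% called. Ldb1, the adaptor that joins LIM homeodomain factors such as Lhx1, rose (0.77 ± 0.09), and Dach1, a corepressor in the Eya network, fell (-0.58 ± 0.08). Groucho-type corepressor genes Tle3 (0.54 ± 0.08) and Tle1 (0.46 ± 0.13) rose. So did the NuRD complex genes Mta1 (0.44 ± 0.08), Chd4 (0.34 ± 0.08) and Gatad2a (0.30 ± 0.08), whose complex is recruited by Sall1. With sex in the fit Ldb1, Dach1 and Tle1 still passed, and 4 calls were made without Cre-negative replicate 1, Cre-negative replicate 3 or Cre-positive replicate 2.

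**Figure D3:**
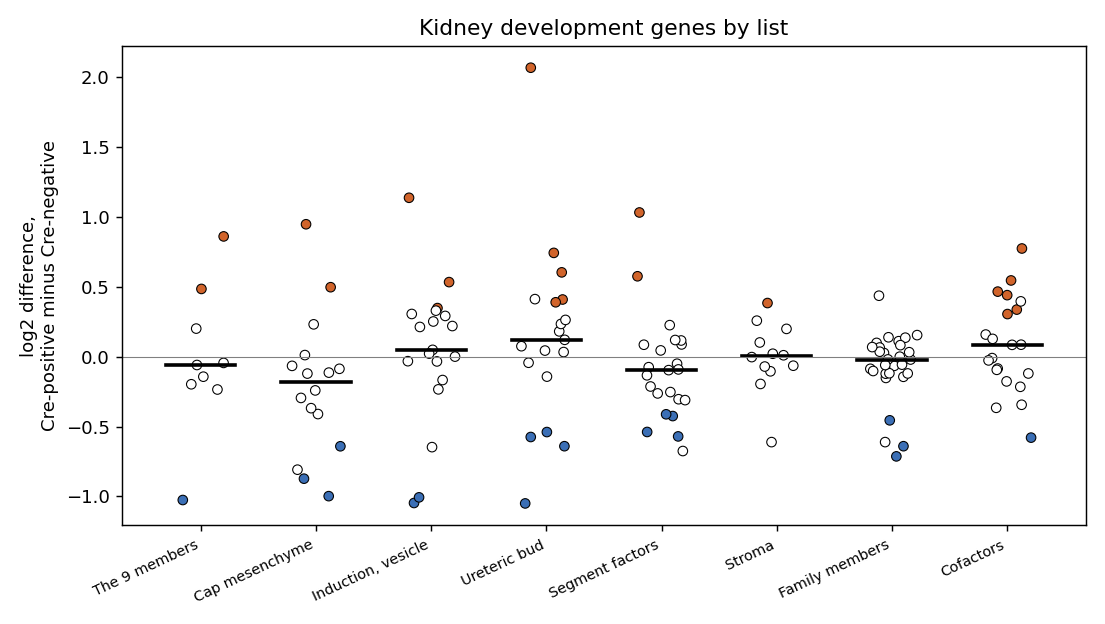
Log2 difference, Cre-positive minus Cre-negative (y axis), of the 9 genes and of the measured genes in 7 lists of kidney development (x axis); orange points passed the test as higher, blue as lower and white points did not pass, horizontal bars are list medians, and sideways spread has no meaning. Calls in both directions are seen in most lists, and Sox9 at 2.07 lies highest.

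**Figure D4:**
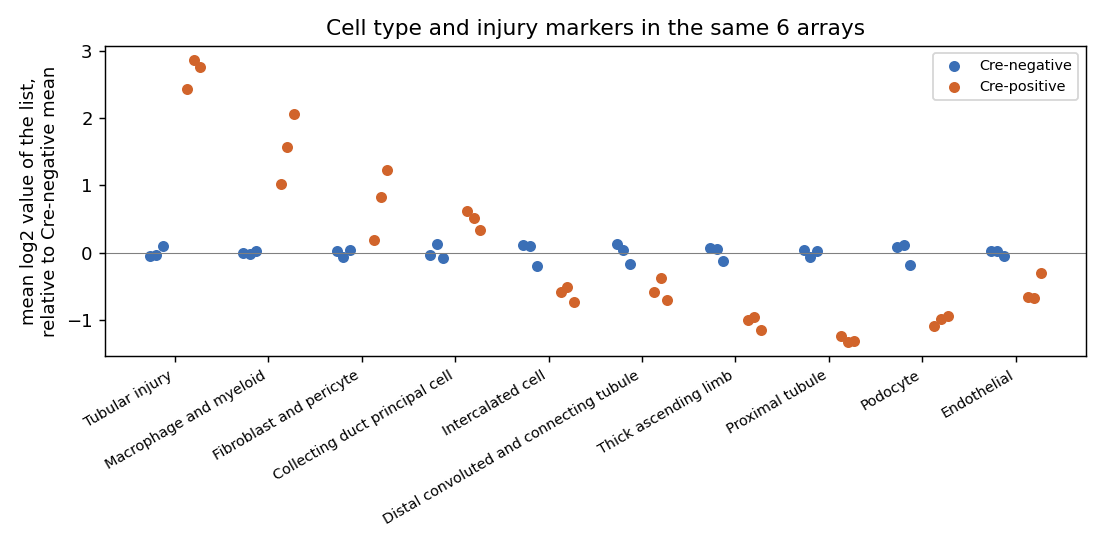
Mean log2 level of each marker list in each of the 6 arrays, minus the mean of the Cre-negative arrays (y axis), for 10 marker lists (x axis); blue points are Cre-negative and orange points Cre-positive arrays, drawn by replicate from left to right. The fibroblast and pericyte mean runs from 8.995 to 10.03 before that subtraction in Cre-positive arrays. Proximal tubule, thick ascending limb, distal convoluted and connecting tubule, intercalated cell, podocyte and endothelial lists lie below 0 in all Cre-positive arrays.

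Of the other marker lists, 7 of 11 fibroblast and pericyte genes and 10 of 12 macrophage and myeloid genes rose, and none was lower by limma, adjusted or at an unadjusted p under 0.05. Endothelial markers fell in 5 of 9 cases, and 1 was higher at an unadjusted limma p under 0.05. Intercalated cell markers fell in 4 of 8 cases, and distal convoluted and connecting tubule markers in 7 of 9 with 1 rise. Over all genes, 10.7% were called higher and 11.1% lower. Of 7 measured cell cycle genes none passed limma's test or had an unadjusted p under 0.05.

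The profiles most like those of Pax8 and Lhx1 were sought among the 22180 genes. The measure was the root mean square difference between 2 log2 profiles over the 6 arrays, each centred on its own mean. Predicted and clone-named loci, small RNA genes and olfactory or vomeronasal receptor genes were left out, so closer profiles may exist among them. For Pax8 these were Ppan (0.041), Ahnak (0.049) and Krtcap3 (0.055), which differed between groups by 0.88 ± 0.09, 0.82 ± 0.11 and 0.96 ± 0.11. For Lhx1 they were the succinyl-CoA ligase gene Sucla2 (0.058), the sodium channel subunit gene Scn4b (0.058) and Fgfbp1 (0.060), at -1.03 ± 0.08, -0.999 ± 0.09 and -0.99 ± 0.11. Both the group difference and the spread within groups enter this measure.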

How the data were processed

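Total RNA of 6 kidney samples was hybridised to 1 array each. The authors deposited 1 table of log2 values; the tools listed in the submitters' processing notes, with no version, are Partek and RMA. RMA by definition corrects background, quantile-normalizes and summarises probes, and it compresses differences of dim probe sets. Of 41345 rows, 23521 had exactly 1 gene symbol in the platform annotation, and the row with the highest mean stood for each of 22180 genes, dim ones included. The test was limma's two-sided moderated test (limma 3.58.1, R 4.3.3) between the groups alone, adjusted by Benjamini-Hochberg over all genes at a threshold of 0.05. The number of arrays limits precision. On simulated data over 22180 genes, 24% of genes changed by 0.5, 70% by 1 and 94% by 2 (log2) were called. The simulation changed a far smaller share of genes than the 21.8% called here. Benjamini-Hochberg adjustment is stricter in that setting, so the rates need not hold for these data. The genes and lists were chosen with earlier results of these data known. Named from each list were the 4 genes of smallest p and up to 8 that passed. Sex was read from Xist against Uty. Sequences came from RefSeq (GRCm38.p6), and the build behind the probe sets is not given in the sources used here. Python 3.11.15, pandas 2.3.3 and matplotlib 3.10.9 were used for joins and figures.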

Additional observations from a re-analysis of the deposited data

How the results depend on the processing

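Across 19 alternatives, the calls of Pax8 and Lhx1 held in all 19 and that of Pax2 in 16. The count of the 9 genes called higher was 1 in place of 2 with male arrays alone and at a threshold of 0.01, and 1 to 2 when single arrays were left out. The count called lower was 2 in place of 1 after a second quantile normalization, and 1 to 2 when single arrays were left out. The median over the 9 genes ran from -0.16 to 0.029, less than its spread between replicates from the main value of -0.06. Among uncalled genes the sign turned for Sall1 (0.11 with the sex term and with male arrays alone, 0.018 without both arrays that carried adrenal or muscle transcripts, -0.16 to 0.013 leaving out single arrays), Pou3f3 (0.029 with the sex term and with male arrays alone) and Six2 (-0.17 to 0.049 leaving out single arrays). Six2 and Eya1 lie below the median level and were not tested under that filter. Mpp5 was at -0.68 with male arrays alone and did not pass there.

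Counts for the lists depended more on the setting, and the cause was not tested. With the sex term 3 induction, 2 ureteric, 1 segment, 0 stromal, 0 family and 3 cofactor genes were called. Male arrays alone, a fit that takes the 1 Cre-negative array left to vary as the Cre-positive arrays do, gave 0 progenitor, 2 induction, 1 ureteric, 1 segment, 0 stromal, 0 family and 0 cofactor calls by limma. Without both arrays that carried adrenal or muscle transcripts there were 2 progenitor, 3 induction, 5 ureteric, 2 segment, 0 stromal, 1 family and 2 cofactor calls. A threshold of 0.01 gave 3 induction, 5 ureteric, 2 segment, 0 stromal and 4 cofactor calls, and 0.10 gave 8 progenitor, 3 stromal and 5 family calls. Array weights gave 9 progenitor and 2 stromal calls. Stromal calls were 2 after a second quantile normalization and without genes below the median level, and 0 under median centring. Leaving out single arrays gave 4 to 6 progenitor, 3 to 5 induction, 6 to 10 ureteric, 2 to 7 segment, 0 to 1 stromal, 3 to 5 family and 4 to 10 cofactor calls.

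Replicate numbers are shared by the groups, but deviations from group means correlated by 0.03, -0.04 and -0.01 between arrays of the same number. Only the arrays numbered 1 correlated best with their own number. Cre-negative replicate 2 correlated best with Cre-positive replicate 3 (0.05), and Cre-negative replicate 3 with Cre-positive replicate 2 (0.03). With the replicate block limma called 3977 genes in place of 4844, 3 induction genes and 0 stromal genes, and Pax8, Pax2 and Lhx1 still passed (adjusted p = 0.00428, 0.0295 and 0.00227). The table allows no other background correction and names no scan batch.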

Other observations

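The nearest measured genes on either side of each of the 9 genes, by RefSeq order, were examined. Of 18 such neighbours, 1 passed limma's test, a smaller share than the 21.8% called over all genes. Dim loci were among these 18, such as Nt5c1b beside Osr1 at 3.56 to 3.94 over the 6 arrays. RMA compresses differences at such levels, which limits the comparison of shares. Psd4, which encodes an Arf exchange factor and lies next to Pax8, stood at 4.55, 5.49 and 5.30 in Cre-negative and 6.36, 6.48 and 6.38 in Cre-positive arrays. It rose by 1.29 ± 0.22 (limma adjusted p = 0.00492), 2.45-fold with a 95% interval of 1.73 to 3.48, and its groups did not overlap. With sex as a second factor its adjusted p was 0.0796 (0.00264 to 0.0796 over the alternatives). The antisense gene Emx2os beside Emx2 (0.21 ± 0.12), Six3 beside Six2 (0.03 ± 0.12) and Pantr1 beside Pou3f3 (-0.37 ± 0.11, limma adjusted p = 0.0504) did not pass. These neighbours were looked at after the values of the 9 genes were known.

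Itga8, an integrin gene of the mesenchyme that was not called, showed an uneven Cre-positive group like that of Osr1, with 7.28, 7.62 and 8.44 in Cre-positive replicates 1 to 3 and 8.61, 8.68 and 8.48 in Cre-negative arrays (-0.81 ± 0.26, limma adjusted p = 0.0627). Unlike for Osr1, every Cre-positive value of Itga8 lay below every Cre-negative value, by a gap of 0.04. Itga8 was chosen after its values were seen.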
